A study of Mus musculus with 2 samples.

Results

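The genes described here build, guard and clear the protein content of mitochondria. They comprise 41 genes of 19938 measured, taken by their symbols: every gene named Timm or Tomm followed by a digit, and the chaperones, proteases, processing peptidases, prohibitins and outer membrane assembly factors Hspd1, Hspe1, Hspa9, Grpel1, Grpel2, Trap1, Clpp, Clpx, Lonp1, Phb2, Samm50, Mtx1, Mtx2, Pmpca, Pmpcb, Afg3l2 and Spg7. Phb, which the choice also named, and Timm10b were read only by probe sets that carry 2 gene symbols, so they are not among the 41.

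The tissue was inguinal white adipose tissue, the subcutaneous fat of the groin, of male C57BL/6J littermates. The first group carried Ucp1-/- and ApoE-/- (UCP1/ApoE-DKO, labelled DKO), and the second carried ApoE-/- alone (ApoE-KO), so by the labels the loss of ApoE was shared by both and no array held wild-type tissue. All mice were kept at 23 °C and were switched to a high-fat diet when 9 weeks old and stayed on it for 9 weeks. RNA of 3 mice was pooled per genotype and each pool went on 1 Affymetrix whole-transcript array, which leaves 2 arrays, no measure of the spread between mice or arrays, no test and no p-value for any difference given here. UCP1 is the proton carrier of thermogenic fat, and ApoE is a ligand for lipoprotein uptake.

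Nearly all mitochondrial proteins are encoded in the nucleus and made in the cytosol. The TOM complex of the outer membrane admits them, after which the TIM23 complex passes those with a cleavable presequence towards the matrix, the TIM22 complex inserts carrier proteins into the inner membrane, the small TIM chaperones escort hydrophobic proteins across the intermembrane space and the SAM complex folds outer membrane barrels. In the matrix the Hsp70 motor pulls, the processing peptidase cuts off the presequence, chaperonins fold, and ATP-driven proteases remove what is damaged. Thermogenic adipocytes are rich in mitochondria and depend on this supply.

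Before the members were read, the labels were checked against the targeted genes. Ucp1 had an intensity of 2230 in the DKO-labelled array, against 219 in the ApoE-KO-labelled array, a log2 difference of 3.35. Apoe had 502 in the DKO-labelled array, against 589 in the ApoE-KO-labelled array (-0.23), and so lay above the expression floor in both, although both carry ApoE-/- by their labels. Both genes go against the labels unless their probes lie outside the deleted parts, which cannot be read from these data. Every direction given here therefore rests on the labels, and the arrays are called by them. Mature adipocyte markers were well represented in both arrays: all 15 measured lay on or above the expression floor, with a median log2 difference of 0.06. The floor is an intensity of 196.9, the midpoint of all probe sets with 1 gene symbol when ranked by their mean log2 value, and is not a detection limit. Skeletal muscle markers stood apart, since all 24 were lower in the DKO-labelled array (median log2 difference -3.46), with summed intensities of 4294 in the DKO-labelled array, against 48199 in the ApoE-KO-labelled array. Brown and beige adipocyte markers ran the other way, with summed intensities of 34937 in the DKO-labelled array, against 7326 in the ApoE-KO-labelled array. Of 19 measured, 15 were higher and 14 of the 17 on or above the floor at least 2-fold, while Prdm16 (0.13), Ebf2 (-0.21) and Tbx1 (-0.05) were not. In the muscle list, 19 of 24 genes lay below the floor in the DKO-labelled array, against 3 in the ApoE-KO-labelled array (Myh7, Tnnt1 and Cav3), and none was at 0. Markers of B cells (median log2 difference -1.08, with 5 of 9 at least 2-fold lower), T cells (-0.52), macrophages (-0.51) and fibroblasts (-0.57) were lower too, and endothelial markers were level (0.07). The part that the cellular makeup of the 2 pools has in the results below was not tested, and in whole tissue more cells of a type and more RNA per cell cannot be told apart.

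The import, chaperone and protease genes were higher almost throughout in the DKO-labelled array. Of the 41 genes, 38 had a positive log2 difference (DKO-labelled array minus ApoE-KO-labelled array) and 3 a negative one, with a median of 0.68, and the middle of the range lay between 0.41 and 0.95 (quartiles). Among the 39 on or above the floor, 10 were at least 2-fold higher, or 25.6%, against 2.79% of all 9891 genes on or above it. Of the 39, 0 were at least 2-fold lower, which 0.698% of all genes were. The median of all 9891 genes was -0.01, their quartiles were -0.19 and 0.20, and 48.2% of the genes were positive. The share of all genes past 1.5-fold was not counted. A further 16 members were between 1.5-fold and 2-fold higher, 12 were higher by less than 1.5-fold, 1 (Tomm34) was lower by less than 1.5-fold, and 2 (Tomm20l and Timm8a2) had a mean below the floor. The 10 were Timm9, Timm8a1, Mtx2, Pmpcb, Grpel1, Afg3l2, Hspa9, Lonp1, Timm17a and Timm44. They included genes of the outer membrane assembly factors, the small TIM chaperones, the TIM23 complex, the processing peptidase, the matrix chaperones and the proteases, and none of the TOM complex, the TIM22 complex or the prohibitins. Timm17a, Timm44 and Lonp1 lay so close to 2-fold that quantile normalization, or an offset of 50 before the logarithm, put them under it and left 7 members past 2-fold. The shift was common to most members, and its size differed between partners of the same complex.

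**Figure D1:**
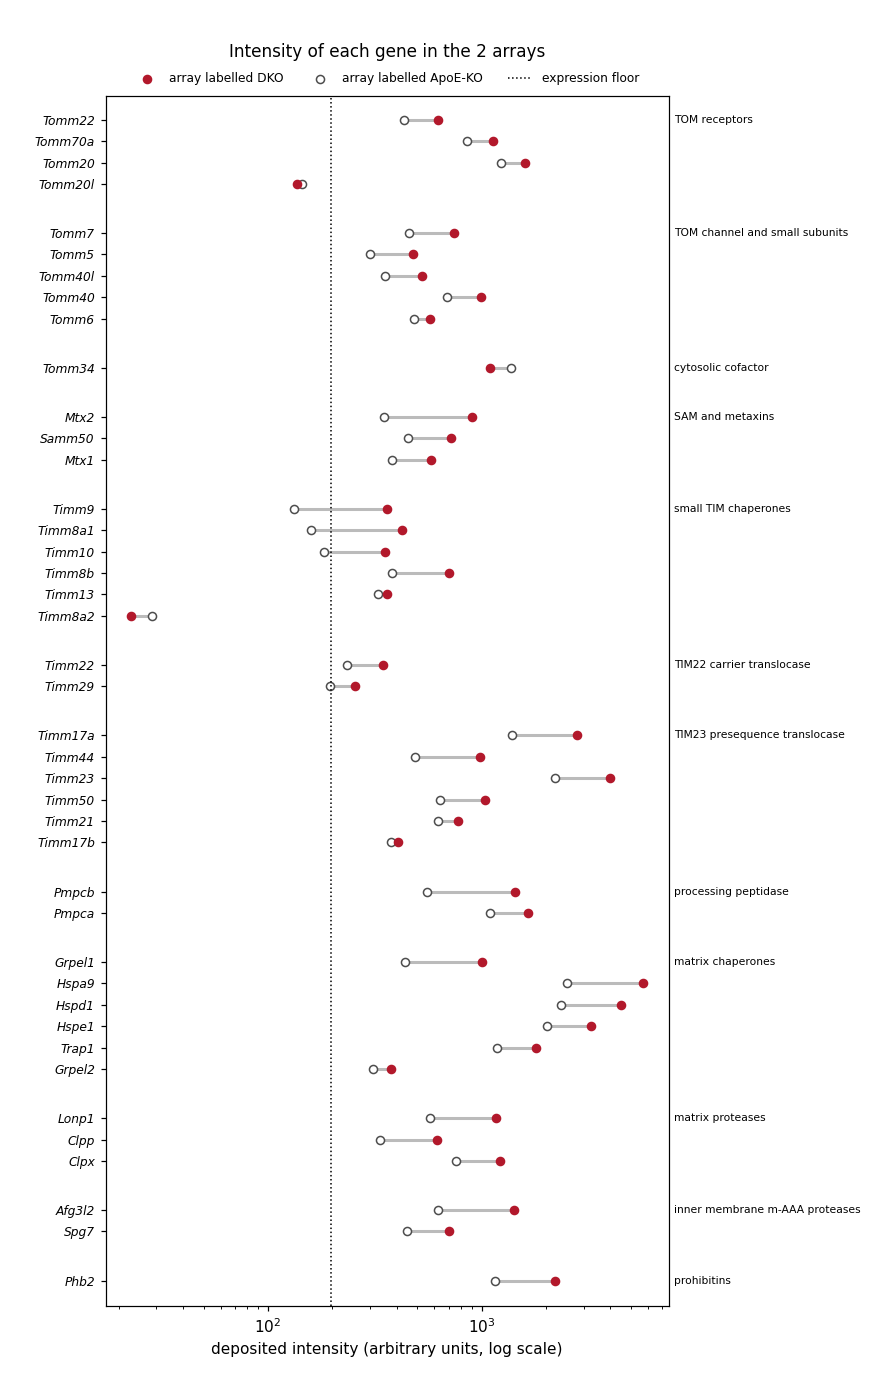
Deposited intensity (log scale) of the 41 genes in the DKO-labelled array (filled) and the ApoE-KO-labelled array (open), grouped by role, with the expression floor of 196.9 dotted. The filled point lies to the right for all but Tomm20l, Tomm34 and Timm8a2, and Timm9, Timm8a1, Timm10 and Timm29 cross the floor between the arrays.

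Promoter windows were available for 35 of the 41 genes (RefSeq, build GRCm38.p6, 250 bases before to 50 bases after a transcript start), and were searched on both strands for the letters of factors that are known to drive mitochondrial genes. The letters CCGGAAG, the core that the ETS factor GABPA binds, occurred in 17 of the 35 genes (48.6%), against 20.3% of 7924 measured genes on or above the floor with a window and 9.93% of all 27025 genes with one. The share was 36.8% in 68 mitochondrial ribosomal protein genes, 27.1% in 59 nuclear oxidative phosphorylation genes and 26.7% in 15 cytosolic chaperone genes, and the differences between these shares were not tested. In 14 of the 17, a match lay no more than 100 bases before the start, or after it. The letters AAGGTCA, bound by the oestrogen-related receptors (ERR), occurred in 6 of 35 (17.1%), against 3.89% of measured genes on or above the floor and 11.9% of the oxidative phosphorylation genes. For the heat shock factor letters GAANNTTC it was 3 of 35 (8.57%, against 6.83%), for CGCATGCG of NRF1 2 of 35 (5.71%, against 4.43%), for AAGATGG of YY1 4 of 35 (11.4%, against 8.51%) and for TTGCAT of the C/EBP family 1 of 35 (2.86%, against 8.34%). Related genes held several of these letters more often than the members. In oxidative phosphorylation and mitochondrial ribosomal protein genes, the shares were 15.3% and 10.3% for NRF1 and 15.3% and 19.1% for YY1. They were 6.78% and 4.41% for C/EBP and 6.78% and 7.35% for the heat shock factor, whose letters occurred in 40% of the cytosolic chaperone genes. Hspd1 and Hspe1 are counted separately in the members' shares, although their windows overlap and hold the same GABPA, ERR and heat shock factor letters. The members' windows had a median GC content of 60.0%, against 52.7% over all windows. Matches are letters in a window and not measured binding. Among members on or above the floor, the 16 with the GABPA letters ran from -0.32 (Tomm34) to 1.37, with a median log2 difference of 0.87. The 17 without them ran from 0.10 to 1.44 (median 0.66). Of the 8 members past 2-fold with a window, 3 held the GABPA letters, against 14 of the 27 other members. For the ERR letters it was 1 of 8, against 5 of 27. These splits were not tested.

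**Figure D2:**
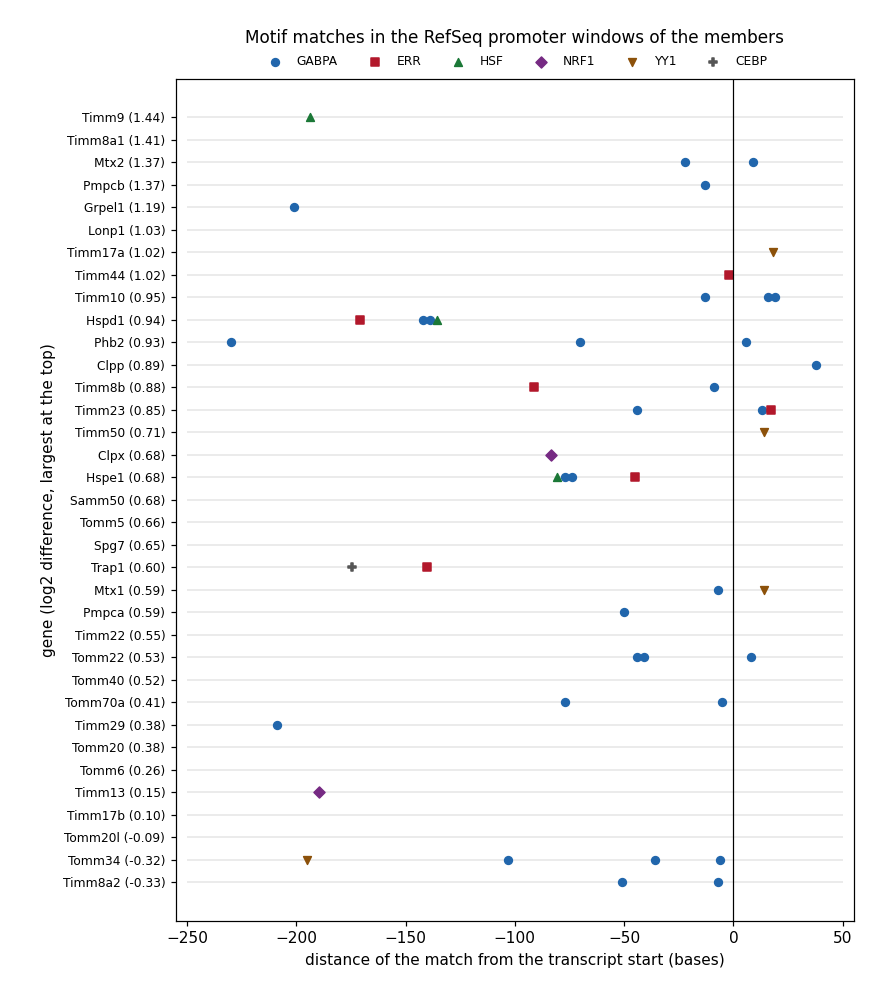
Position of each motif match relative to the transcript start (bases, x axis) in the 35 members with a window, ordered by log2 difference from the largest (top), all windows of a gene drawn on its row. GABPA matches lie near the start in Mtx2 and Pmpcb, in genes under 2-fold such as Tomm22 and Pmpca, and in Tomm34, which was lower. Timm8a1 and Lonp1 hold none of the 6 motifs.

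Windows of 6 genes show these letters, with matches in capitals, 5′ to 3′ on the gene's own strand. Hspe1 is shown because its window shares 285 bases with a window of Hspd1, the gene read from the opposite strand, and together they encode the ring and the lid of the chaperonin. In it the heat shock factor letters overlap a GABPA match, and 2 GABPA matches on opposite strands overlap each other. Mtx2 and Pmpcb are the genes of large difference with GABPA letters at the start, and Timm23 holds GABPA letters that run into ERR letters. Timm44 holds ERR letters across the start and no GABPA letters. Tomm34 holds GABPA letters and was the 1 member on or above the floor that was lower. Timm8a2, which lay below the floor and is not shown, also had a negative value and GABPA letters.
Hspe1 (chr1:55087898-55088197, plus strand): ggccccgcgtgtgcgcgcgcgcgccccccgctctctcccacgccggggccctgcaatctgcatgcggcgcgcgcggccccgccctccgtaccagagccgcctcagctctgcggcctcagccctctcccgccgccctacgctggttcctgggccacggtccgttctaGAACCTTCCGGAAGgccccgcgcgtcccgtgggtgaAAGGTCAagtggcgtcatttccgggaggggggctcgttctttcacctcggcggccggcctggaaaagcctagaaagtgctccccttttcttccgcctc
Mtx2 (chr2:74825562-74825861, plus strand): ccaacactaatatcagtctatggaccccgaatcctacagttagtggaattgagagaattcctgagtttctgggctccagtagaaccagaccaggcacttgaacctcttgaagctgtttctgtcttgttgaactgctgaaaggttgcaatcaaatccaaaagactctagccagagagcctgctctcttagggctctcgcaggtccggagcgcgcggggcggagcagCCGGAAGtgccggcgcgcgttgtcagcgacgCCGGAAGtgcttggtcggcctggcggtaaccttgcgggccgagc
Pmpcb (chr5:21736910-21737209, plus strand): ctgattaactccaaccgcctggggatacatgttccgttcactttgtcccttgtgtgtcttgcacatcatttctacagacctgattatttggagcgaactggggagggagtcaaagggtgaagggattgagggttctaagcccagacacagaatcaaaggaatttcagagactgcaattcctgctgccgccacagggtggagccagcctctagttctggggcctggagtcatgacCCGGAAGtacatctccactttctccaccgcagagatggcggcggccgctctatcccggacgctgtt
Timm23 (chr14:32201842-32202141, minus strand): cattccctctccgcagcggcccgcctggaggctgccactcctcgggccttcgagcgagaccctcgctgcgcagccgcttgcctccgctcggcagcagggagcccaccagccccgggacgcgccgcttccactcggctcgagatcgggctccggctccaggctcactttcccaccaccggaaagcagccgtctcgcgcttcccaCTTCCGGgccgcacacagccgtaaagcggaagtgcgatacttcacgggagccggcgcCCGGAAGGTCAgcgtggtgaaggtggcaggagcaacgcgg
Timm44 (chr8:4275856-4276155, minus strand): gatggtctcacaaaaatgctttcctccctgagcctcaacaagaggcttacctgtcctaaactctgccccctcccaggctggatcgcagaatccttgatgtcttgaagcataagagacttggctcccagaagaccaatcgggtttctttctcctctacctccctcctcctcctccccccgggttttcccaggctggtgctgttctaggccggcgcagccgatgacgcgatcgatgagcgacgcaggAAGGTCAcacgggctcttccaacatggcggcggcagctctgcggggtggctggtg
Tomm34 (chr2:164071053-164071352, minus strand): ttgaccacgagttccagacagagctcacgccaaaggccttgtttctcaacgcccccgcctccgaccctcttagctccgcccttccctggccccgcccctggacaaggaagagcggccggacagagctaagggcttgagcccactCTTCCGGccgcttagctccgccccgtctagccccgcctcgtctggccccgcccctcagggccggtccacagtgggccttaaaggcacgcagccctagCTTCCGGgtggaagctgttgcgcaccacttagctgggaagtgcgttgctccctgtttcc

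The receptor genes of the TOM complex all lay below the members' median of 0.68. Tomm22, the central receptor, had an intensity of 621 in the DKO-labelled array, against 431 in the ApoE-KO-labelled array, a log2 difference of 0.53. Tomm70a, the receptor of carrier proteins, stood at 0.41 and Tomm20, the receptor of presequences, at 0.38. Tomm20l, a relative of Tomm20, lay below the floor in both arrays (136 in the DKO-labelled array, against 145 in the ApoE-KO-labelled array). The probe set used for Tomm22, and the brighter of the 2 for Tomm20, carry identifiers that fall among those of genes on another chromosome than the gene's own. The same holds for the probe sets used for Timm8a1, Timm23, Hspd1 and Hspe1, and whether such values come from copies of a gene was not tested. The other Tomm20 probe set gave 0.36.

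The channel and the small subunits of TOM overlapped the receptors in their values. Tomm40, the channel itself, had a log2 difference of 0.52, and its relative Tomm40l 0.57. Among the small subunits that hold the complex together, Tomm7 stood at 0.70, Tomm5 at 0.66 and Tomm6 at 0.26. None of the 9 TOM genes, of which Tomm20l lay below the floor, reached 2-fold. Among all genes on or above the floor, 2.79% were at least 2-fold higher, and none in so few genes is close to that share. The 5 channel and small subunit genes had a median of 0.57. Tomm34, a cytosolic cochaperone that hands precursors to the outer membrane, was lower, at 1098 in the DKO-labelled array, against 1368 in the ApoE-KO-labelled array (log2 difference -0.32). It was the single member on or above the floor with a negative value, and it is the member that works in the cytosol.

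At the outer membrane assembly machinery, Mtx2 stood out from its partners. This metaxin, which works with the SAM complex, had an intensity of 899 in the DKO-labelled array, against 348 in the ApoE-KO-labelled array, a log2 difference of 1.37 or 2.58-fold. Samm50, the barrel-forming core of SAM, was at 720 in the DKO-labelled array, against 451 in the ApoE-KO-labelled array (0.68). Mtx1, the partner metaxin, was at 576 in the DKO-labelled array, against 382 in the ApoE-KO-labelled array (0.59), so the difference of Mtx2 exceeded that of Mtx1 by 0.78. Of the 12 outer membrane genes, 11 lay on or above the floor, and Mtx2 was the 1 of these past 2-fold. Among all genes on or above the floor, 2.79% were at least 2-fold higher.

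The small TIM chaperones ranged widely, from Timm9 and Timm8a1, past 2-fold, to Timm13, close to level. They work as hexamers, Timm9 with Timm10 and Timm8a1 with Timm13. Timm9 had an intensity of 359 in the DKO-labelled array, against 132 in the ApoE-KO-labelled array (1.44), and Timm10 354 in the DKO-labelled array, against 183 in the ApoE-KO-labelled array (0.95). Timm8a1, whose human counterpart is mutated in a deafness and dystonia syndrome, had 424 in the DKO-labelled array, against 159 in the ApoE-KO-labelled array (1.41), and its second probe set gave 1.46. Timm13 had 362 in the DKO-labelled array, against 325 in the ApoE-KO-labelled array (0.15), so that within this hexamer the 2 differences were 1.26 apart, or 0.95 once the low Timm8a1 value is raised to the floor. Timm8b stood at 0.88. Timm8a2, a relative of Timm8a1, was far below the floor in both arrays (22.9 in the DKO-labelled array, against 28.7 in the ApoE-KO-labelled array). The values of Timm9, Timm8a1 and Timm10 in the ApoE-KO-labelled array fell short of the floor, and once raised to it they gave differences of 0.87, 1.11 and 0.85, which leaves Timm8a1 alone of them past 2-fold. Timm9 and Timm8a1 had the largest differences of all members as deposited, but with the floor, or with an offset of 50 (1.17 and 1.18), they came below Mtx2 (1.37 with the floor and 1.25 with the offset) and Pmpcb (1.37 and 1.29).

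The TIM22 genes, whose complex inserts the SLC25 carriers, UCP1 among them, were higher by less than 1.5-fold. Timm22, its channel, had an intensity of 344 in the DKO-labelled array, against 234 in the ApoE-KO-labelled array (0.55). Timm29, a subunit that in human cells links it to TOM, had 254 in the DKO-labelled array, against 196 in the ApoE-KO-labelled array (0.38), and its value in the ApoE-KO-labelled array lay just under the floor.

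In the TIM23 complex, the 2 alternative Timm17 subunits gave different values. Timm17a had an intensity of 2795 in the DKO-labelled array, against 1379 in the ApoE-KO-labelled array (1.02). Timm17b had 404 in the DKO-labelled array, against 377 in the ApoE-KO-labelled array (0.10), so the 2 differences were 0.92 apart. Timm44, which tethers the Hsp70 motor to the channel, had 986 in the DKO-labelled array, against 488 in the ApoE-KO-labelled array (1.02). Timm23, the channel, had 3998 in the DKO-labelled array, against 2211 in the ApoE-KO-labelled array (0.85). It has 4 probe sets that form 2 sets of identical values, 0.85 and 0.83, and count as 2 readings at most. Timm50, the receptor facing the intermembrane space, stood at 0.71, and Timm21, which contacts TOM, at 0.31. All 6 genes of the complex were positive, with a median of 0.78.

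The motor and its helpers in the matrix followed. Hspa9, the mitochondrial Hsp70 that pulls precursors in, had an intensity of 5695 in the DKO-labelled array, against 2517 in the ApoE-KO-labelled array, a log2 difference of 1.18 or 2.26-fold. Grpel1, its nucleotide exchange factor, had 1001 in the DKO-labelled array, against 438 in the ApoE-KO-labelled array (1.19). The alternative exchange factor Grpel2 had 374 in the DKO-labelled array, against 309 in the ApoE-KO-labelled array (0.28), which is 0.92 below Grpel1 on the log2 scale. In the Timm17 and the Grpel genes alike, then, 1 paralogue was past 2-fold and the other at most 1.21-fold higher.

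The chaperonin genes and Trap1 were positive as well. Hspd1 (Hsp60) had an intensity of 4503 in the DKO-labelled array, against 2346 in the ApoE-KO-labelled array (0.94). Its 2 probe sets fall on either side of 2-fold: the brighter one is placed among the genes of another chromosome, and the other, placed with the genes of its own chromosome, had 2717 in the DKO-labelled array, against 1281 in the ApoE-KO-labelled array (1.09). Hspe1 (Hsp10), the lid of the chaperonin, had 3229 in the DKO-labelled array, against 2021 in the ApoE-KO-labelled array (0.68), and its other probe set gave 0.64. The differences of the chaperonin genes, whose windows share the stretch printed above, were 0.26 apart on the log2 scale, and 0.44 apart by the probe sets placed on their own chromosome. Processed copies of Hspd1 and Hspe1 are scattered over the mouse genome, and what such copies add to these values was not tested. Trap1, the mitochondrial Hsp90, stood at 0.60.

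The processing peptidase showed another uneven partnership. Pmpcb, the catalytic subunit that removes presequences, had an intensity of 1423 in the DKO-labelled array, against 552 in the ApoE-KO-labelled array (1.37, or 2.58-fold). Pmpca, the subunit that recognises them, had 1647 in the DKO-labelled array, against 1093 in the ApoE-KO-labelled array (0.59), so the 2 differences lay 0.77 apart. The windows of both genes hold the GABPA letters.

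The ATP-driven proteases among the members were positive in every case. Lonp1, which degrades oxidised matrix proteins, had an intensity of 1165 in the DKO-labelled array, against 570 in the ApoE-KO-labelled array (1.03). Clpp, the proteolytic chamber of the other matrix protease, had 620 in the DKO-labelled array, against 335 in the ApoE-KO-labelled array (0.89), and its unfoldase Clpx stood at 0.68. Of the m-AAA protease in the inner membrane, Afg3l2 had 1419 in the DKO-labelled array, against 626 in the ApoE-KO-labelled array (1.18), and Spg7, which is mutated in a form of human spastic paraplegia, 701 in the DKO-labelled array, against 447 in the ApoE-KO-labelled array (0.65). Phb2, a prohibitin whose ring surrounds that protease, had 2192 in the DKO-labelled array, against 1152 in the ApoE-KO-labelled array (0.93). By compartment, the median log2 difference was 0.89 over 11 matrix genes, 0.71 over 11 of the inner membrane, 0.92 over 6 of the intermembrane space and 0.55 over 12 of the outer membrane. The ranges of these compartments overlap, and the order was not tested.

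**Figure D3:**
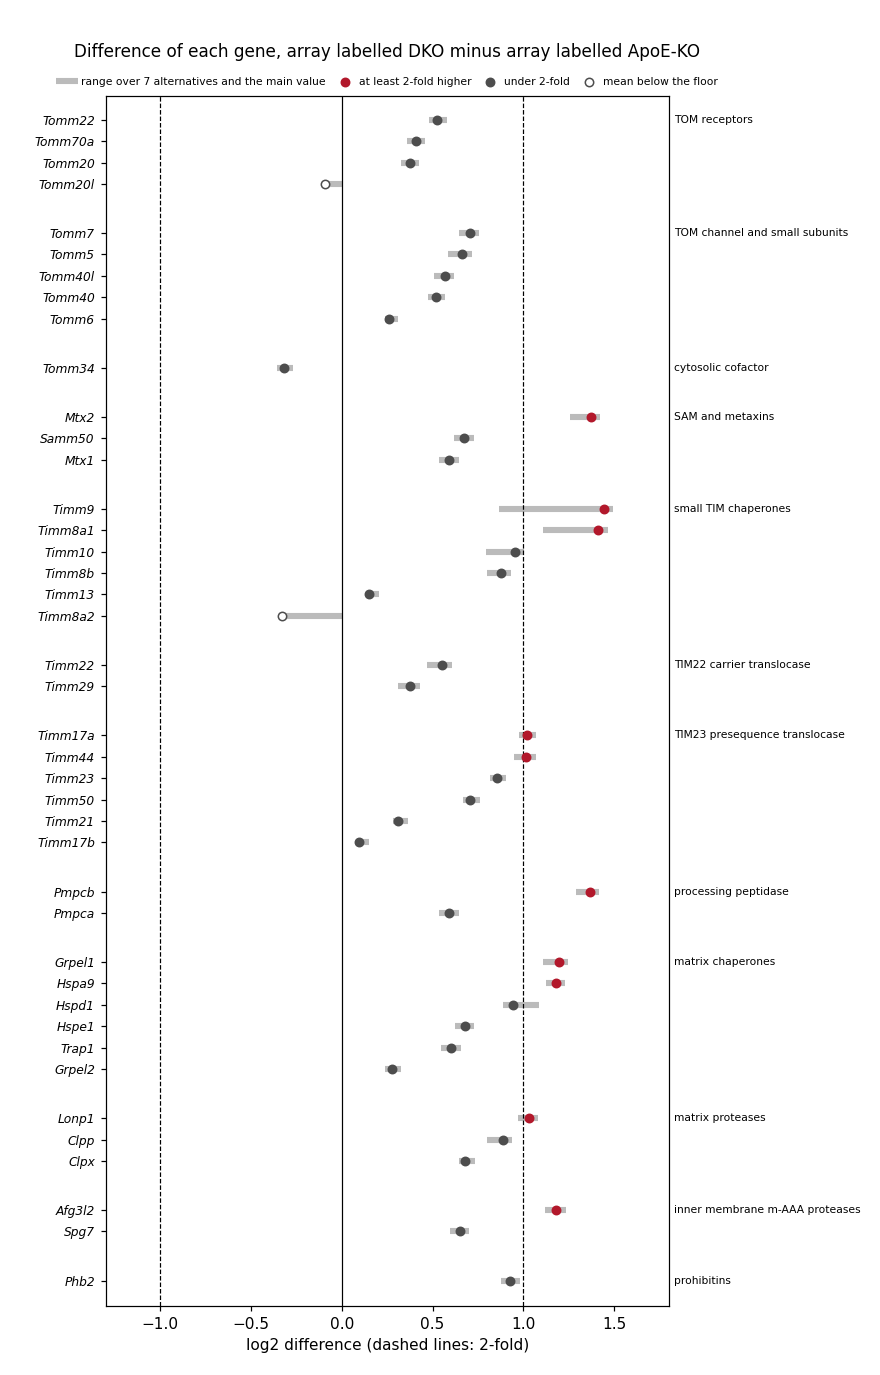
Log2 difference (DKO-labelled array minus ApoE-KO-labelled array) of the 41 genes by role, with dashed lines at 2-fold; the grey bar spans the main value and 7 alternative settings for the same gene. Red points are the 10 genes at least 2-fold higher, and the bars of Timm17a, Timm44, Lonp1, Timm9, Hspd1 and Timm10 reach across the 2-fold line.

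Other genes, taken from lists made for partners of the pathway, leaned the same way. All 18 measured genes of the import partner list were positive, with a median of 0.54, and 4 were at least 2-fold higher. Among these, Dnaja3 (1.29) is a matrix cochaperone of Hspa9 and Dnajc15 (1.08) a motor cochaperone. Mipep (1.01) makes a further cut after the processing peptidase, and Ghitm (1.24) is an inner membrane protein whose part in import was not examined. Chchd4, the oxidoreductase that folds the small TIM proteins, stood at 0.90 and its partner Gfer at 0.23. The motor subunits Pam16 (0.72) and Dnajc19 (0.42) and the insertase Oxa1l (0.54) stood between. Inner membrane proteases and their partners were less uniform, with a median of 0.28 over 8 genes and none past 2-fold. Parl (0.83), the rhomboid protease, and Stoml2 (0.72), a scaffold of proteases, contrasted with Yme1l1 (-0.05), the i-AAA protease facing the intermembrane space, Oma1 (0.08), which cuts Opa1 under stress, and Htra2 (0.10). Afg3l1, a further m-AAA gene, stood at 0.46, so Afg3l2 was past 2-fold while Spg7 and Afg3l1 were not.

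Chaperones of other compartments did not share the size of these differences. The 18 measured cytosolic chaperones had a median of 0.18, with the cochaperone Bag3 (0.49) and the chaperonin subunit Cct3 (0.44) highest and 0 past 2-fold. Hspa8, the constitutive cytosolic Hsp70 that delivers precursors to TOM, had an intensity of 6894 in the DKO-labelled array, against 7133 in the ApoE-KO-labelled array (-0.05). Probe set placement is given for members only, and whether values of listed genes such as Hspa8 come from copies was not tested. The 15 chaperones and folding enzymes of the endoplasmic reticulum had a median of -0.09, with Hspa5, the Hsp70 of that compartment, at -0.09, and Dnajb9 (0.76) apart from the rest. Of the other Hsp70 family genes on the cytosolic list, Hspa4 stood at 0.21 and Hspa1a at 0.11. These Hsp70 genes were named after their values were seen. Regulators tied to the mitochondrial stress response were all positive and all under 2-fold (7 measured, median 0.46). Cebpb stood at 0.76, Ddit3, which encodes CHOP, at 0.55, Sirt3 at 0.52, Atf5 at 0.46 and Atf4 at 0.44. Ubl5 stood at 0.25, and Hdac2 was close to level (0.06).

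Against other gene groups, the members' median of 0.68 lay between that of 71 nuclear-encoded subunits of oxidative phosphorylation (0.997, with 35 of 68 on or above the floor at least 2-fold higher) and those of 77 mitochondrial ribosomal proteins (0.60, 4 of 72) and 40 subunits of the proteasome, which is not mitochondrial (0.40, 0 of 37). Cytosolic ribosomal proteins had a median of -0.18 over 60 genes. With 1 array per genotype these medians are set side by side, and their differences were not tested.

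**Figure D4:**
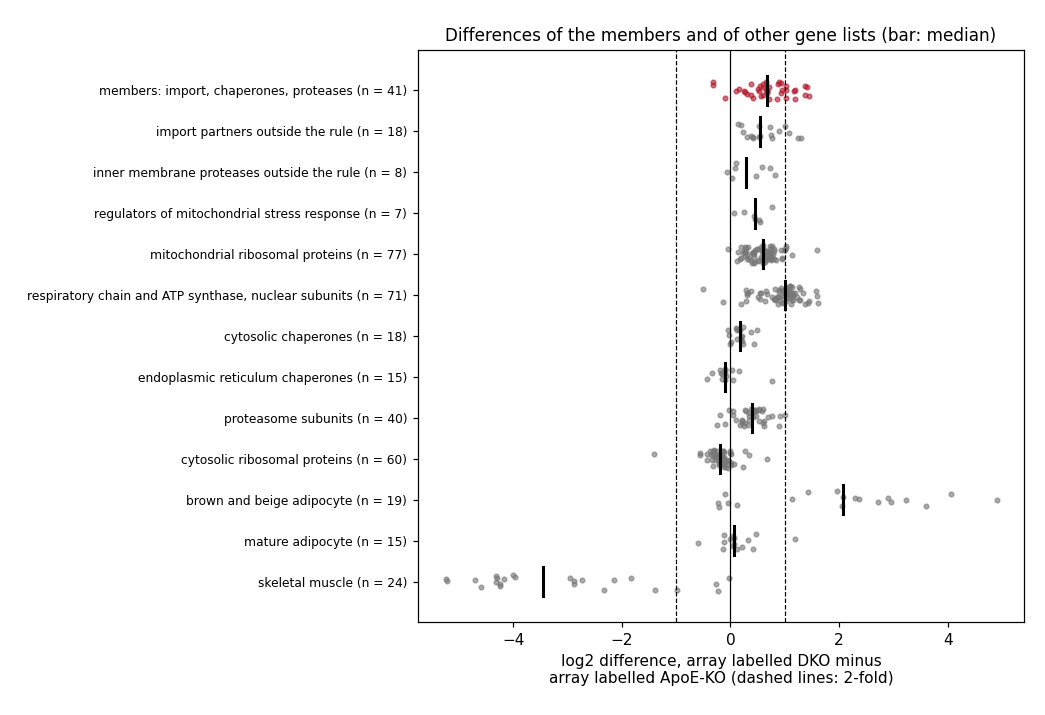
Log2 difference of each gene (points) and the median (bar) for the members in red and 12 other lists in grey, with dashed lines at 2-fold. The members (median 0.68) sit between the mitochondrial ribosomal proteins (0.60) and the respiratory chain (0.997), cytosolic and endoplasmic reticulum chaperones lie near 0, and brown adipocyte and muscle markers spread far to either side.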

How the data were processed

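Expression was measured on 2 arrays, 1 per pool of 3 mice. The authors deposited 1 linear intensity per probe set and array; per the labels' protocols RNA was extracted with Trizol and labelled for whole-transcript arrays. For background correction, summarisation and scaling, the sources used here name no method. The 35557 probe sets had a median of 152.1 in the DKO column and 157.65 in the ApoE-KO column.

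Differences are log2 without a pseudocount. Of the probe sets, 21789 carried 1 symbol in the platform annotation, 1621 carried several and were not used for names, and 12147 were unnamed here. The members had 49 probe sets, and each gene was read by its brightest on average. All 41 matched RefSeq by Entrez identifier. Placement was judged by the most frequent chromosome among the genes of the 20 nearest identifiers on each side. It was the gene's own chromosome for 96.8% of 21698 probe sets, and for Timm21 57.5% of the neighbours lay there. Values are given for members past 2-fold, within 0.1 of it on the log2 scale, and for the 6 lowest, with others by role. The members, roles, lists and motifs were chosen with earlier results of these data known. Scripts, tested on simulated data, used Python 3.11.15, pandas 2.3.3 and statsmodels 0.14.6.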

Additional observations from a re-analysis of the deposited data

How the results depend on the processing

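The precision of every value is limited by the 2 arrays, and no background level was measured here against which low intensities could be set. The median of the members stayed between 0.62 and 0.73 over 10 alternatives, the number of positive members was 38 in each of 7, and 0 members were at least 2-fold lower in each of 11. The 10 members at least 2-fold higher became 26 at a threshold of 1.5-fold and 0 at 3-fold, and 7 to 11 under the other 9 settings, which included quantile normalization and an offset of 50 (7 each) and median centring (11). The share of all genes on or above the floor that were at least 2-fold higher ran from 2.24% with the offset to 3.18% with median centring. No such share was counted at 1.5-fold or 3-fold. Close to the line, Timm17a (0.97), Timm44 (0.99) and Lonp1 (0.99) fell under 2-fold with quantile normalization and also with the offset (0.99, 0.95 and 0.97), Timm17a came to 0.999 when its 2 probe sets were averaged, Timm10 passed 2-fold with median centring (1.01), and Timm9 came to 0.87 with the floor in place of lower values. Hspd1 passed 2-fold when its 2 probe sets were averaged (1.01) and with the probe set placed on its own chromosome (1.09), a setting chosen after seeing the data that gave 11 members past 2-fold. The role and list medians kept their sign except that of mature adipocytes, which was -0.00198 with quantile normalization. No paired analysis was possible because each genotype has 1 pooled array.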
